A study of Drosophila melanogaster with 4 samples.

Results

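Stretches of at least 20 kb that held no cluster enriched for H3K27me2 were collected on the 5 large chromosome arms of Drosophila melanogaster, 2L, 2R, 3L, 3R and X. A cluster is a region that the authors called enriched in chromatin immunoprecipitation followed by sequencing (ChIP-seq). The enriched clusters of both ChIP replicates and of the authors' combined list were merged, and the gaps between consecutive merged regions were measured, with sequence ends counted as borders. Of 14471 such gaps on the large arms, 484 reached 20 kb, which is 3.34% of them, and 13987 were shorter. On all sequences that carry clusters the gaps numbered 16411. The stretches were chosen by the measured clusters themselves, so their number, length and place, and the clusters that border them, are given as a description and without a test.

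The study measured H3K27me2 with antibody Ab24684 in nuclei of larvae of instar 3, strain Oregon-R, genotype wild type. There were 2 ChIP samples and 2 input samples, each input serving the ChIP sample of the same number, and the labels give no other treatment or genotype. Whether the replicates are separate batches of larvae is not stated, and their spread may be technical. Chromatin came from homogenised larval tissue, so a gap in the clusters describes a mixture of tissues, and a mark carried by few of the cells cannot be told apart from a mark that is absent. Read depth is unknown because the files hold no read counts. On the large arms replicate 1 covered 43.6% of the bases with clusters, replicate 2 covered 37.9% and the combined list 53.1%.

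H3K27me2 is the dimethylated form of lysine 27 on histone H3. It is set by Polycomb repressive complex PRC2, whose E(z) subunit also makes the trimethylated form H3K27me3. In fly chromatin the dimethyl mark is spread widely over inactive and intergenic sequence. It is known to be low over actively transcribed genes and also low in Polycomb domains, where the same lysine is trimethylated. A long stretch without H3K27me2 clusters can therefore lie in chromatin of opposite kinds, and the clusters alone do not tell them apart. Expression and H3K27me3 were not analysed here. The label euchromatic could not be checked against an independent mark: all stretches lie on assembled arms, and 21 of the 484 lie within 1 Mb of the centromere-side end of the assembly.

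The stretches together spanned 15.9 Mb, 13.3% of the large arms and 29.9% of all bases there that lay outside clusters. By the rule they were longer than all other gaps. The median stretch measured 27.9 kb, with quartiles of 23.3 and 36.6 kb, and the gaps under 20 kb had a median of 1158 bp. Short stretches were the most frequent. A total of 284 measured 20 to 30 kb, 151 measured 30 to 50 kb and 49 measured 50 kb or more. The 49 long ones held 21.2% of the bases in stretches, and the 10 longest held 6.66%.

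Gap lengths ran on without a jump at the minimum of 20 kb. The first 1 kb above it held 43 gaps, and the last 1 kb below it held 55. Within 100 bp of the minimum, 4 gaps lay just inside. They were 3L 12589210 to 12609221 and X 12463456 to 12483467, both 20012 bp, 2L 19488529 to 19508577 with 20049 bp and 3R 5859255 to 5879351 with 20097 bp. A further 5 gaps lay just outside, namely X 6966848 to 6986844 with 19997 bp, X 21405481 to 21425434 with 19954 bp, 2R 339664 to 359614 with 19951 bp, 2R 18768435 to 18788368 with 19934 bp and X 70539 to 90471 with 19933 bp. All coordinates are those of FlyBase release 5.

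X carried more stretches per Mb than each autosome arm, and they had a higher median length. There were 112 stretches on X, or 4.99 per Mb. The autosome arms held 92 on 2R (4.35 per Mb), 86 on 2L (3.74), 104 on 3R (3.73) and 90 on 3L (3.67). Stretches took up 17.5% of X, against 11.5% of 3L to 14.0% of 2R among the autosome arms. The median stretch measured 30.1 kb on X, against at most 28.7 kb on an autosome arm, and the upper quartile was 41.8 kb on X against 35.0 kb over the autosome arms together. Stretches of 50 kb or more occurred at 0.803 per Mb on X and at 0.321 per Mb on the autosome arms together. Of all gaps on X, 4.19% were stretches, close to the 4.06% on 2R. The share was 3.15% on 3R, 2.83% on 3L and 2.82% on 2L. Clusters covered 40.5%, 32.5% and 50.0% of X in replicate 1, replicate 2 and the combined list. The values of replicate 2 and the combined list were the lowest of the 5 arms, while in replicate 1 2L was lowest (39.7%).

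**Figure D1:**
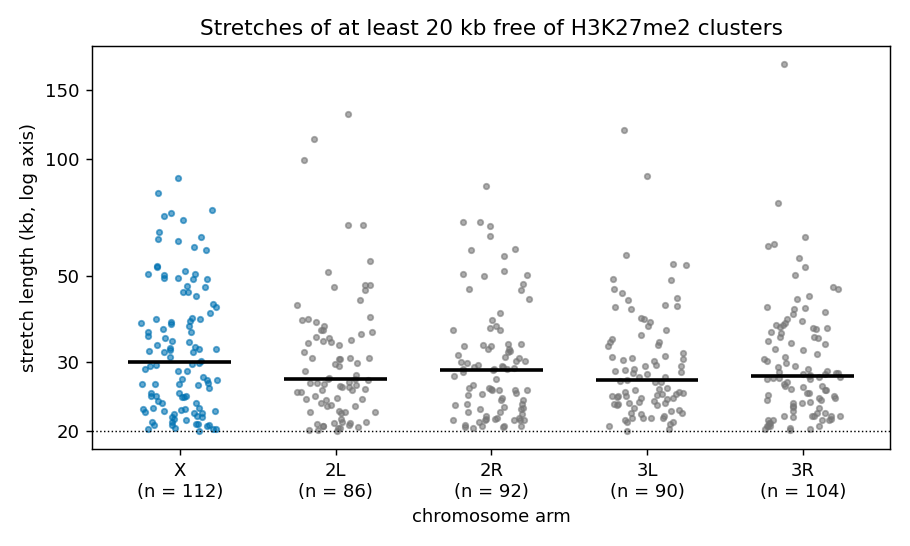
Length of each of the 484 stretches (vertical log axis, kb) by chromosome arm; points are single stretches, spread sideways for visibility, black bars are medians and the dotted line is the minimum of 20 kb. X has the most points and the highest median (30.1 kb), while the longest single stretch, 174.7 kb, lies on 3R.

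In each replicate list taken alone X also had the most long gaps per Mb. In replicate 1 there were 6.42 gaps of at least 20 kb per Mb of X, against 4.98 on 3R to 6.03 on 3L. In replicate 2 there were 7.89 per Mb of X, against 6.45 on 3R to 7.78 on 2L, so the lead over 2L was slight. The mean of the replicates was 7.16 ± 1.04 per Mb on X and ranged from 5.72 ± 1.04 on 3R to 6.67 ± 1.57 on 2L (SD, n = 2 each). X exceeded the mean of the 4 autosome arms by 0.872 per Mb in replicate 1, by 0.806 in replicate 2 and by 1.12 in the merged lists. The difference changed sign, to -1.10, when only clusters that reached the median score of their list were allowed to end a stretch. Clusters on X that bordered no stretch had median scores of 0.76, 0.70 and 0.53 in replicate 1, replicate 2 and the combined list, the highest of the 5 arms in each.

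The longest stretch lay on 3R from 12629673 to 12804390 and spanned 174.7 kb, 6.26 times the median. In release 5 this is the place of the part of the bithorax complex with abd-A and Abd-B, the Hox genes of the abdominal segments and well-known Polycomb targets; the placement is background knowledge, since no gene positions of that release were used. In the RefSeq gene table of Release 6, MSAmiP is the only protein-coding gene listed between abd-A and Abd-B, and the miRNA genes mir-iab-4 and mir-iab-8 also lie there. The gap around this stretch measured 174.7 kb in replicate 1, 374.2 kb in replicate 2 and 174.9 kb in the combined list. In replicate 2 the clusters were thus missing over a much wider interval, 3R 12455713 to 12829929. This was the longest gap of replicate 2, and it took in 3 of the stretches, which added up to 238.7 kb. Replicate 1 had 15 clusters in that interval, covering 8.21% of it. They were 1.33 to 3.56 kb long (median 1.91 kb), with scores of 0.42 to 0.89 (median 0.56) on a scale read as log2. All clusters of replicate 1 on the large arms had medians of 2467 bp and 0.67. The combined list covered 9.51% of the interval.

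The second longest stretch, 2L 21412464 to 21542752 with 130.3 kb, lies at the histone gene complex in release 5, where the replication-dependent histone genes are repeated in tandem. This placement too is background knowledge. The RefSeq table of Release 6 lists 111 genes for histones H1, H2A, H2B, H3 and H4 on 2L, with 0 other protein-coding genes between the first and the last. The gap measured 135.2 kb in replicate 1, 133.2 kb in replicate 2 and 130.3 kb in the combined list, so the lists placed it closely alike. The combined cluster at its far end, 2L 21542753 to 21543753, was short (1.00 kb) and had one of the highest scores among bordering clusters (2.00); neither replicate had a cluster there. The sources used here do not say how reads from repeated sequence were placed, and its part in this gap was not tested.

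The next 8 stretches in length lay on 3L, 2L, X, 2R and 3R. Parentheses give the gap around each in replicate 1 and then in replicate 2. On 3L, 19808624 to 19926792 spanned 118.2 kb (133.1 and 122.2 kb) and 1489186 to 1579393 spanned 90.2 kb (90.3 and 90.6 kb). On 2L, 10196526 to 10308714 spanned 112.2 kb (112.4 and 112.7 kb). The stretch near the start of the arm, 2L 153524 to 252950, spanned 99.4 kb and stood apart in its replicates, since replicate 1 gave 99.4 kb and replicate 2 gave 209.0 kb. On X, 1749681 to 1838677 spanned 89.0 kb (93.7 and 90.2 kb) and 15590903 to 15672749 spanned 81.8 kb (83.5 and 85.7 kb). The longest on 2R was 6348719 to 6433694 with 85.0 kb (85.1 and 85.7 kb), and 3R 12054154 to 12131233 spanned 77.1 kb (77.4 and 79.4 kb). Among the 10 longest, the replicates thus gave gaps within 10% of each other in all but 2, namely the stretch at the bithorax complex and the one near the start of 2L, both far wider in replicate 2.

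Stretches occurred along the full length of the arms. When each arm was cut into 3 parts of equal length, the telomere-side parts held 143 stretches, the middle parts 175 and the centromere-side parts 166. The middle part held the most on X (45) and 2R (35), while the centromere-side part held the most on 3R (41). Within 1 Mb of the assembled ends there were 24 stretches on the telomere side and 21 on the centromere side. A sequence end formed the border of 3 stretches. They were the first 53.7 kb of 3L, the first 26.4 kb of 2L and the last 25.5 kb of 2L, and unassembled or repeated sequence there was not examined.

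**Figure D2:**
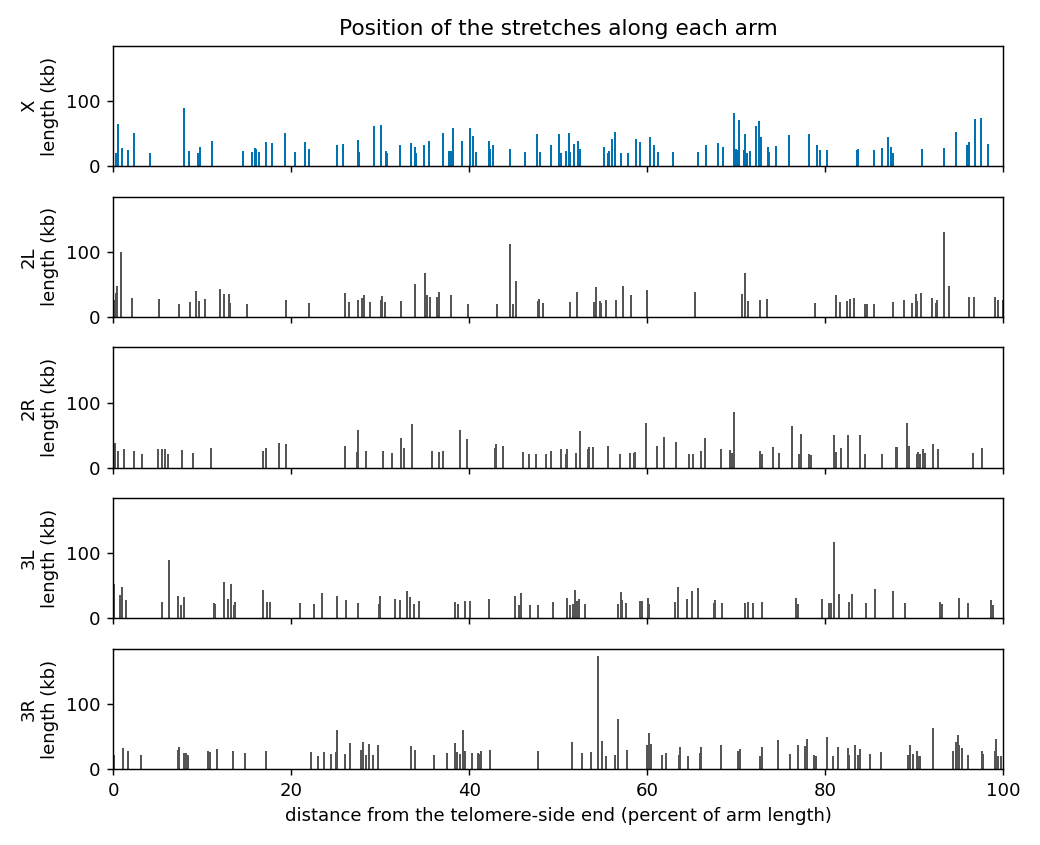
Each vertical line is a stretch, placed by the distance of its midpoint from the telomere-side end of the arm (horizontal axis, percent of arm length), with its length in kb as height. Stretches run along all 5 arms, and the tallest line is the 174.7 kb stretch on 3R.

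Some of the stretches had a close neighbour. The distance between consecutive stretches had a median of 131.4 kb and a mean of 212.7 kb, over 479 pairs on the same arm. It reached 1485.8 kb. In 74 pairs (15.4%) the stretches were at most 20 kb apart, and in 36 pairs under 5 kb. Joining stretches at most 20 kb apart gave 63 runs of at least 2 stretches with 137 stretches in all, 28.3% of them, of which 9 runs held 3 or more. Runs numbered 17 on X, 13 on 3R, 12 each on 2L and 2R and 9 on 3L. In many runs replicate 2 had no cluster, so its own gap went through the whole run. In the runs at 2L 10960845, 2R 8736593 and X 18735941 neither replicate had a cluster. There the stretches were parted by 1 cluster of the combined list, of 1.19, 1.05 and 1.13 kb.

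In the 9 runs of 3 or more stretches, the share of the run that lay in stretches ranged from 79.0% (3L 12723570 to 12851662) to 96.5% (X 15876037 to 15973869). The run at X 15590903 to 15806290 joined 4 stretches over 215.4 kb, of which 94.9% lay in stretches. Replicate 1 had 4 clusters there and covered 4.90% of it, and replicate 2 had 4 and covered 3.22%. A second run of 4, X 8441877 to 8586398, spanned 144.5 kb with 87.9% in stretches, 5.94% covered in replicate 1 and 2.98% in replicate 2. The widest runs of 3 lay at X 16160923 to 16354598 (193.7 kb), 3R 11034157 to 11193377 (159.2 kb) and 2R 6348719 to 6495133 (146.4 kb). Replicate 2 had a single cluster in the run at X 16160923, covering 1.53% of it, and replicate 1 had 3, covering 4.67%. The run at 3R 11034157 was more broken, with 82.3% in stretches, 5 clusters of replicate 1 covering 10.1% and 3 of replicate 2 covering 4.96%.

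The number of stretches per bin varied about as much as its mean at each bin size. The 117 full bins of 1 Mb held 4.06 stretches on average and at most 9, and 6 held none. The variance over the bins was 0.953 times the mean, and it ranged from 0.609 times on 3L to 1.24 times on 3R. In bins of 500 kb, 36 of 236 held no stretch, the fullest held 7 and the ratio was 1.08. In bins of 200 kb, 254 of 593 held no stretch and the ratio was 0.885. The fullest bins, with 9 stretches each, were X 11000001 to 12000000 and X 15000001 to 16000000. They were singled out after their values were seen.

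Coverage differed among the widest spacings between stretches. The widest spacings, also singled out after the values were seen, were 3R 14585057 to 16070824 (1485.8 kb), 2R 15653260 to 17027034 (1373.8 kb) and 3R 21719486 to 23092076 (1372.6 kb). Clusters covered 53.8%, 64.3% and 56.4% of these in replicate 1, and the shares were 52.8%, 57.0% and 51.3% for replicate 2. The combined list covered 67.7%, 74.5% and 66.6%. The next, 2L 16918468 to 18143406 (1224.9 kb), was covered over 25.9% of its bases in replicate 1 and over 21.0% in replicate 2, while the combined list covered 44.0%. All of 2L was covered over 39.7%, 36.1% and 51.0% by the same lists. By the way stretches were chosen, all gaps inside these spacings are shorter than 20 kb.

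Each stretch lies inside a gap of every list, because any cluster would have cut it. The gap in a single list can be longer, and it usually was in replicate 2. Its median around a stretch was 31.1 kb in replicate 1, 41.5 kb in replicate 2 and 28.7 kb in the combined list. The own gap was longer in replicate 2 for 409 of the 484 stretches and longer in replicate 1 for 75. In 131 stretches both were within 5% of each other. The gap of replicate 2 exceeded that of replicate 1 by more than 1.5 times for 154 stretches, and the reverse held for 11. The longer gaps of replicate 2 go with its lower coverage, given above, and the part of read depth was not tested.

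**Figure D3:**
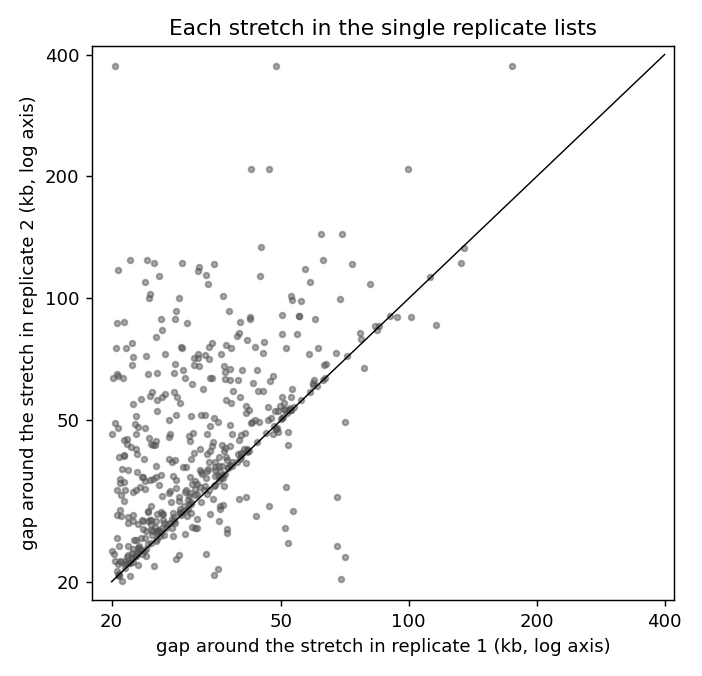
Length of the gap that contains each stretch in replicate 1 (horizontal log axis, kb) and in replicate 2 (vertical log axis, kb); each point is a stretch and the line marks equal lengths. Most points lie on or above the line (409 of 484), and the 3 highest, at 374.2 kb in replicate 2, share the gap on 3R that holds the longest stretch.

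The length of a stretch made little difference to this direction. The own gap was longer in replicate 2 for 84.2% of stretches of 20 to 30 kb, 84.8% of those of 30 to 50 kb and 85.7% of those of 50 kb or more. A gap over 1.5 times as long in replicate 2 was less frequent among the long ones, with 22.4% of stretches of 50 kb or more, against 28.5% of the middle class and 35.2% of the shortest. The gap of replicate 2 exceeded the stretch by a median of 6.82 kb in the shortest class. In the middle class this excess was 6.83 kb, and at 50 kb or more it was 5.87 kb. A like excess in kb gives a smaller ratio on a longer stretch. The difference between the shares was not tested.

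Replicate 1 alone held 678 gaps of at least 20 kb (4.66% of its gaps on the large arms), replicate 2 alone held 859 (6.23%) and the combined list alone 515 (3.43%). These spanned 22.5, 33.9 and 17.1 Mb. A stretch of the merged lists lay in 70.6% of the long gaps of replicate 1, in 51.9% of those of replicate 2 and in 93.2% of those of the combined list. The long gaps of both replicates had 19.3 Mb in common, 85.8% of the total in replicate 1 and 56.8% of that in replicate 2. Long gaps of replicate 1 were thus mostly also free in replicate 2, while many long gaps of replicate 2 held clusters of replicate 1.

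The clusters that cut a long gap of the other replicate were short and modest in score. They were chosen for lying wholly where the other replicate called nothing, while the comparison holds all clusters, also shared ones. This choice can itself favour short and low-scored clusters, so the values are only a description. Wholly inside long gaps of replicate 2 lay 1515 clusters of replicate 1 whose medians were 1810 bp and a score of 0.52, while all its clusters on the large arms had 2467 bp and 0.67. Inside long gaps of replicate 1 lay 349 clusters of replicate 2, with medians of 1658 bp and 0.55, while all of them had 2276 bp and 0.62. With the combined list left out, 566 stretches were found, and 85 of them held none of the 484. The 252 combined clusters that lay inside the 566 measured 1202 bp and scored 0.35 at the median, while all combined clusters of the large arms had 2653 bp and 0.48.

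The stretches had 965 edges at clusters. An edge coincided with the last base of a cluster of the combined list alone in 436 cases, of replicate 1 alone in 429 and of replicate 2 alone in 86, and of more than 1 list in 14. The merged region at the edge held clusters of all 3 lists in 50.4% of cases, against 57.0% of all 14466 merged regions of the large arms. It held clusters of replicate 1 and the combined list without replicate 2 in 30.4% of cases, against 19.5%. Where both replicates had a cluster in the same bordering region, at 487 edges, their ends lay a median of 320 bp apart, and in 75% of cases at most 822 bp apart.

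Coverage outside the stretches was high at the edge and below that of the arms from 5 kb outwards in each list. The first bases outside a stretch lie in a cluster by the way stretches were chosen, so coverage within 2 kb of an edge was high, at 74.4% for replicate 1 and 84.9% for the combined list. For replicate 2 it was 39.7%. At 2 to 5 kb it was still slightly above the arms for replicate 1 (46.4%) and the combined list (53.4%), and below them for replicate 2 (34.2%). At 10 to 20 kb from the edge it was 37.7%, 30.8% and 45.3% in replicate 1, replicate 2 and the combined list. The arms, weighted by the number of stretches on each, were covered over 43.6%, 37.7% and 53.0%. At 100 to 200 kb coverage was 42.4%, 36.9% and 51.7%, close to those arm-wide values. The arm-wide values count the stretches themselves, which hold no clusters. Outside the stretches the large arms were covered over 50.3%, 43.7% and 61.3%. Each class from 2 kb outwards lay below these values, also at 100 to 200 kb. The dip below the arm-wide values was seen in each list and on both sides of the stretches. Windows that reached into a neighbouring stretch were kept, so the runs of stretches are part of the dip. The combined list is of the same replicates and is not a separate observation.

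**Figure D4:**
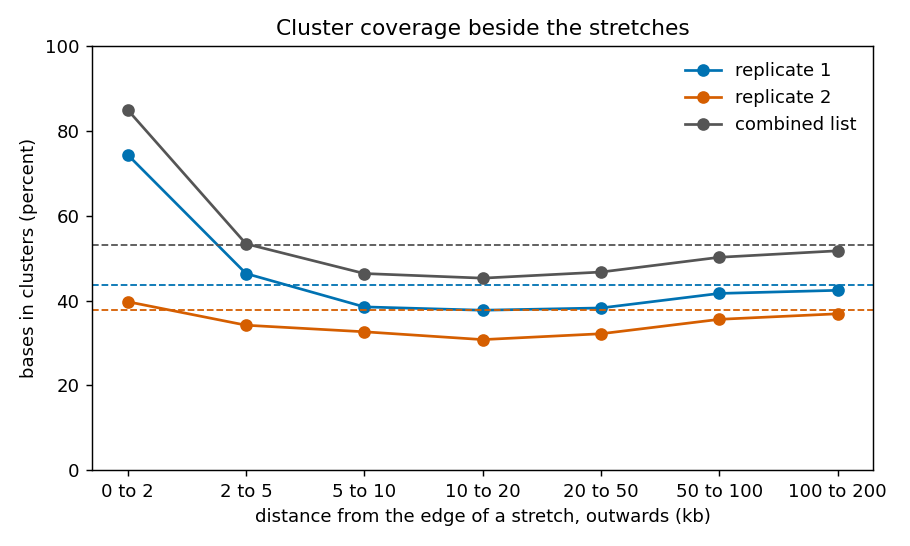
Percent of bases in clusters (vertical axis) by distance outwards from the edges of the stretches (horizontal axis, classes in kb), for each list; dashed lines are the arm-wide values of the same list. All 3 lists fall below their dashed line from 5 to 10 kb outwards and come back close to it by 100 to 200 kb. The dashed lines count the stretches themselves, which hold no clusters.

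The clusters that border the stretches had median scores and lengths slightly below those of other clusters when the arms were pooled. For each edge the nearest cluster of each list within the bordering merged region was taken. Bordering clusters had a median score of 0.65 among the 773 of replicate 1, 0.58 among the 527 of replicate 2 and 0.45 among the 883 of the combined list. The other clusters of the large arms had 0.67, 0.62 and 0.48. The difference, bordering minus other, was -0.022, -0.037 and -0.029 on the scale read as log2. Its mean over the replicates was -0.030 ± 0.011 (SD, n = 2). The difference was below 0 on 5 of 5 arms in replicate 1 and 5 of 5 in replicate 2. In the combined list it was below 0 on 4 of 5, and 2L had 0.0068. These differences are small beside the spread of scores, whose quartiles among bordering clusters of replicate 1 were 0.48 and 0.91.

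The median bordering cluster of replicate 1 measured 2353 bp, that of replicate 2 measured 2068 bp and that of the combined list 2435 bp, and the other clusters measured 2473, 2289 and 2676 bp. The direction was not the same on every arm: on 2L the bordering clusters were longer in each list (2298 against 2233 bp in replicate 1, 2367 against 2191 bp in replicate 2, 2516 against 2472 bp in the combined list), and on X in replicate 1 they had 2450 against 2446 bp. Broad clusters of at least 10 kb made up 2.85%, 2.47% and 5.32% of them, against 4.09%, 3.07% and 7.62% of the others. Score and length rise together in these lists. Among clusters under 2 kb the bordering ones scored lower, with 0.429 against 0.434 (replicate 1), 0.49 against 0.53 (replicate 2) and 0.31 against 0.33 (combined list). Among those of 4 to 10 kb they scored higher in 2 lists (replicate 1, 0.98 against 0.91, and the combined list, 0.69 against 0.65) and lower in replicate 2 (0.70 against 0.72). At 2 to 4 kb they also scored higher in replicate 1 (0.729 against 0.725) and in the combined list (0.500 against 0.498) and lower in replicate 2 (0.628 against 0.646). At 10 kb or more they scored higher in each list, with 1.167 against 1.098 (replicate 1), 0.80 against 0.79 (replicate 2) and 0.85 against 0.79 (combined list). In replicate 1 and the combined list the bordering clusters were thus lower only in the class under 2 kb.

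**Figure D5:**
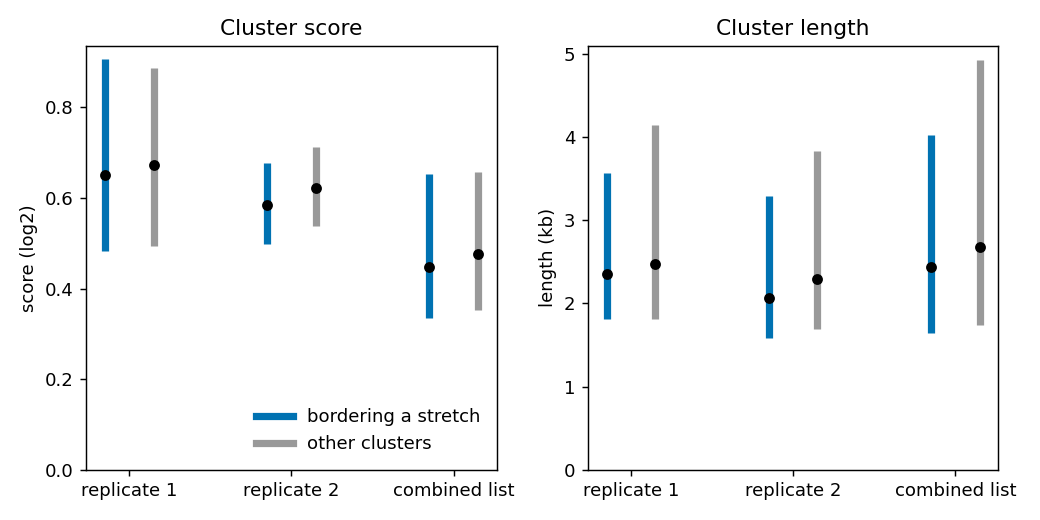
Score (left, read as log2) and length (right, kb) of clusters for each list. Clusters that border a stretch are blue and all other clusters of the large arms are grey. Dots are medians and bars run from the lower to the upper quartile. The medians of bordering clusters lie slightly below those of the others in each list, and the bars overlap almost fully.

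The longest stretches had border scores near those of the shortest. Edges of stretches of 50 kb or more had median scores of 0.66 (replicate 1), 0.56 (replicate 2) and 0.44 (combined list). Edges of stretches of 20 to 30 kb had 0.64, 0.59 and 0.45. Border clusters at the longest stretches were shorter in each list, at 2228 against 2263 bp, 1598 against 2048 bp and 2140.5 against 2394 bp. Length of the border cluster and length of the stretch had Spearman coefficients of -0.014, -0.047 and -0.022 in the same lists. Across edges, the score of the border cluster and the length of the stretch had Spearman coefficients of 0.0084 over 806 edges of replicate 1, -0.054 over 538 of replicate 2 and 0.020 over 919 of the combined list. The scores at both ends of the same stretch had a Spearman coefficient of 0.072 over 437 stretches in the combined list. A high border at one end thus said little about the other end.

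A few borders stood out. The highest score among bordering clusters of the combined list was 3.40, at 2R 15619122 to 15620122, a cluster of 1.00 kb. It was followed by 3R 8322128 to 8323183 (2.14, 1.06 kb), the cluster beside the histone gene complex (2.00), X 21759874 to 21761093 (1.59, 1.22 kb) and X 14082901 to 14094313 (1.51, 11.4 kb). Of these only the last was broad. Neither replicate had a cluster in the bordering region at 2R 15619122, at 3R 8322128 or beside the histone gene complex. The longest bordering clusters were 3R 27447345 to 27487943 (40.6 kb, score 0.95), 3R 20811937 to 20847817 (35.9 kb, 0.98), 2R 20089274 to 20121972 (32.7 kb, 0.97), 3R 24171378 to 24197657 (26.3 kb, 0.87) and 2R 3723574 to 3748982 (25.4 kb, 0.89). At these places a broad cluster of the combined list and a long free stretch adjoin, the widest such stretch being the 60.2 kb on 3R 20847818 to 20908056. The border clusters of single replicates could be shorter. Beside 2R 20089274 they measured 7.91 kb in replicate 1 and 14.2 kb in replicate 2, and beside 2R 3723574 they measured 20.9 and 11.5 kb.

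The authors also typed some regions as depleted. Of 28 such regions on the large arms in the combined list, 4 touched a stretch, and of 14 in replicate 1, 0 did. The stretches take up 13.3% of the bases of those arms, which is not the same measure as a count of touching regions. Only 2 of the 4 lay wholly inside, at 2R 2022857 to 2024553 and 3L 17410119 to 17411779. Their scores were -0.0069 and -0.030 on the scale read as log2. The other 2, at 3L 11209375 and 3L 19982651, overlapped a stretch by only 24 and 139 bp. They lay mostly in bordering regions that were called enriched in replicate 1.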

How the data were processed

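Regions are in FlyBase release 5 coordinates, per the file headers, and come as a list per ChIP replicate and a combined list. The combined list is of the same replicate set, so it does not count as a further replicate. Bowtie 0.12.7 is named in the submitters' processing notes. Neither the peak caller nor its thresholds nor the making of the combined list is given in the sources used here. The deposited score of a region is the authors' own and was read as log2 because pairs of scores lie exactly 1 apart; its base is not stated. Scores only describe clusters within a list. Overlapping or touching enriched clusters of the 3 lists were joined, regions typed as depleted were not, and gaps that reached 20 kb on the large arms were kept. The procedure was tested on simulated lists and gave back the planted gaps. No release 5 genome was used, so assembly gaps and repeats count as free sequence and no sequence is shown. Gene names by order came from the RefSeq table of Release 6. The stretches, the lists and the rule for named stretches (the 10 longest, the longest per arm, up to 5 runs, the 5 highest-scored and 5 longest bordering clusters, those within 100 bp of the minimum) were chosen with earlier results of these data known. Without read counts no counting interval could be given. Software was Python 3.11.15 with numpy 2.4.6, scipy 1.17.1, pandas 2.3.3 and matplotlib 3.10.9.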

Additional observations from a re-analysis of the deposited data

How the results depend on the processing

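The alternatives with a single replicate list, and those for runs and bordering scores other than the distance and the combined list, were chosen after seeing the data. The number of stretches was 484, 499 to 500 with either replicate left out, 791 at a minimum of 15 kb and 200 at 30 kb, 1004 with clusters that reach the median score, 776 with clusters of at least 2 kb and 859 in replicate 2 alone. The total of 15.9 Mb was 40.5 Mb with the cut at the median score, 28.5 Mb with clusters of at least 2 kb and 33.9 Mb in replicate 2 alone. Filters on clusters lengthen gaps by construction. The lead of X of 1.12 per Mb was 0.953 to 0.971 with either replicate left out, 1.43 without the combined list, 0.800 in the combined list alone, 1.56 at 15 kb, 0.997 at 30 kb, 0.802 with clusters of at least 2 kb, 0.872 in replicate 1 alone and 0.806 in replicate 2 alone. It reversed to -1.10 with the cut at the median score, where 2L had the most per Mb; X led in the other 11 of 12 settings. The 63 runs became 150 at 15 kb, 13 at 30 kb, 231 with the cut at the median score, 144 with clusters of at least 2 kb, 108 in replicate 1 alone, 176 in replicate 2 alone and 96 with 50 kb counted as adjacent. The bordering difference of -0.030 was -0.014 with that cut, and the cause was not tested. Leaving out stretches rich in unassembled bases was not run, since no genome of release 5 was used. The replicate numbers tie each ChIP sample to its input. No paired analysis was possible because no input list was used. Limits set by depth could not be measured without read counts.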
